A study of Cyclotella cryptica with 27 samples.

Results

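The proteasome and ubiquitin system of the diatom Cyclotella cryptica was followed over 10 h after cells were moved from seawater to freshwater. Its members were taken by protein name: every gene whose name held "proteasome", "ubiquitin" or "SUMO" was kept, unless the name or its synonyms also held ribosomal protein, histone, DNA repair, anaphase-promoting or mitotic. This gave 183 of the 21250 genes counted, 5810 of which carried a protein name. A further 7 genes held one of the words and were left out by the exclusions, among them both ubiquitin fusions to a ribosomal protein. By name, 19 members belonged to the 20S core of the proteasome and 18 to its regulatory particle. Another 3 were other proteasome proteins, 3 were ubiquitin-activating (E1) enzymes, 15 were ubiquitin-conjugating (E2) enzymes and 64 were ubiquitin ligases (E3) or parts of them. Deubiquitinases made up 25, the SUMO pathway 12, other ubiquitin-like proteins 13, and ubiquitin receptors and other names 11. These roles mostly follow words in the names. RING-H2 genes named without the word ligase therefore stand under other names, as does the proteasome's ubiquitin receptor ADRM1. CCRYP_014649 counts as a subunit of the regulatory particle only by its name, non-ATPase regulatory subunit 9. A gene with the name of the yeast SUMO, CCRYP_005829, stands under other ubiquitin-like proteins. The names come from proteins of other species, so a name does not establish what a diatom protein does.

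In eukaryotic cells ubiquitin is activated by an E1, handed to an E2 and attached to a target protein with the help of an E3, which chooses the target. Chains of ubiquitin mark many proteins for the 26S proteasome, in which the regulatory particle recognises, unfolds and feeds the protein into the barrel of the 20S core, where it is cut. Deubiquitinases remove ubiquitin again, and SUMO, NEDD8 and the autophagy proteins ATG8 and ATG12 are attached to their own targets by related enzymes.

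The RNA came from strain CCMP332, a euryhaline strain grown to exponential phase in artificial seawater of 24 ppt at 15 °C. The seawater control was compared with cells spun down, resuspended in artificial seawater of 0 ppt and sampled after 0 min, 15 min, 30 min, 1 h, 2 h, 4 h, 8 h and 10 h. Polyadenylated RNA was sequenced, and the series asks how the transcriptome responds to acute hypoosmotic stress. Each group has 3 columns, but only 16 of the 27 columns were independent of one another. The control, 0 min and 1 h had 1 independent column each, 10 h had 3 and every other time had 2, and only these columns were used. The groups with 1 column were assumed to vary like the others. The labels do not say whether replicates were separate cultures, so p-values measure the spread between columns, which may be technical. All freshwater groups share the centrifugation and change of medium as well as the loss of salt, the control's handling is not described, and time in freshwater runs with clock time under a light and dark cycle. These cannot be told apart.

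Gene counts per independent column ran from 2809130 to 6889349, with the 30 min replicate 2 the deepest and the 15 min replicate 3 the shallowest. Reads aligned in more than 1 place were 15.9% to 34.1% of the reads considered and were in no gene count, so members with near-identical copies are uncertain. Levels are CPM, the counts of a gene scaled to the size of its library, and are compared between samples, never between genes, since gene lengths were not at hand. Fold changes (log2) are given with their standard error (SE) from edgeR's quasi-likelihood fit. A gene was called when its Benjamini-Hochberg adjusted p over all 12501 genes tested was below 0.05, and "adjusted p" has this meaning throughout. Of the 183 members 182 were tested. The remaining one, CCRYP_001016, named for the ligase HERC1, had 25 counts over all 16 columns. In bulk RNA, a change in a transcript per cell and a change in the mix of cells cannot be told apart.

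Over the 9 groups, 70 of the 182 members differed, or 38.5%, close to the 40.9% of all genes. Against the control, members were mostly called at 30 min and 1 h, and mostly higher. At 30 min 37 members were higher and 9 lower, 24 and 9 with DESeq2. Among all genes 14.0% were called higher and 16.7% lower at that time, against 20.3% and 4.95% of the members. At 1 h 20 members were higher and 3 lower, 11% and 1.65%, where 9.79% of all genes were higher and 8.61% lower. In either direction 25.3% of the members were called at 30 min and 12.6% at 1 h. Both shares were below those of all genes, 30.7% and 18.4%. The median log2 fold change of the members was 0.42 at 30 min and 0.39 at 1 h, and that of all genes was 0.09 and 0.05. The members' calls then thinned out, to 7 at 2 h (5 higher and 2 lower, with 2.94% and 1.95% of all genes, 4.89% in all) and 8 at 4 h (6 higher and 2 lower, with 2.70% and 1.07%, 3.77% in all). No member was called at 8 h, when edgeR called 0.0240% of all genes, although 12 members had an unadjusted p under 0.05 and DESeq2 called 0. At 10 h 14 members were higher and 3 lower, with 4.69% and 3.64% of all genes, 8.33% in all. With the 0 min column as the baseline in place of the control, 10 members were called at 30 min and 6 at 1 h, with 6.46% and 5.48% of all genes. The later times then gave 2, 1 and 0 at 2, 4 and 10 h, with 1.47%, 1.82% and 0.864% of all genes. The share of members called was below that of all genes at each of these times.

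No member was called in the first 15 min. At 0 min edgeR called 0 members and 0% of all genes, 19 members had an unadjusted p under 0.05, and DESeq2 called 1. At 15 min edgeR called 0 members and 0.0880% of all genes, 30 members had an unadjusted p under 0.05, and DESeq2 called 0. The counts depended on single libraries. Here and below, replicates were left out in turn only from groups with more than 1 column. The control, 0 min and 1 h columns stayed in every such fit, so a call that held there was not checked for those columns. With 0 min as the baseline, 12 calls of named genes against the control were kept. Another 45 kept their sign alone, and 12 changed sign. The 46 members called at 30 min became 25 without the 30 min replicate 2, the 2 h count ran from 1 without its replicate 1 to 12 without its replicate 3, the 4 h count from 1 without its replicate 2 to 21 without its replicate 3, and the 10 h count fell to 4 without its replicate 1 and 9 without its replicate 2. The 4 h count was also 4 without the 10 h replicate 1 and 5 without either 15 min replicate or the 30 min replicate 3. In these fits the share of all genes called moved in the same direction as the members' count, except at 4 h without the 30 min replicate 3. Without the 10 h replicate 1 it fell from 8.33% to 2.47% at 10 h. Scaling by library size alone moved the median of all genes at 30 min from 0.09 to 0.34 and the split of members there to 62 higher and 6 lower, and that at 2 h to 2 and 2 (4 and 3 with DESeq2 size factors). The members' median then lay at 0.67, so that it stood above that of all genes under either scaling.

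**Figure D1:**
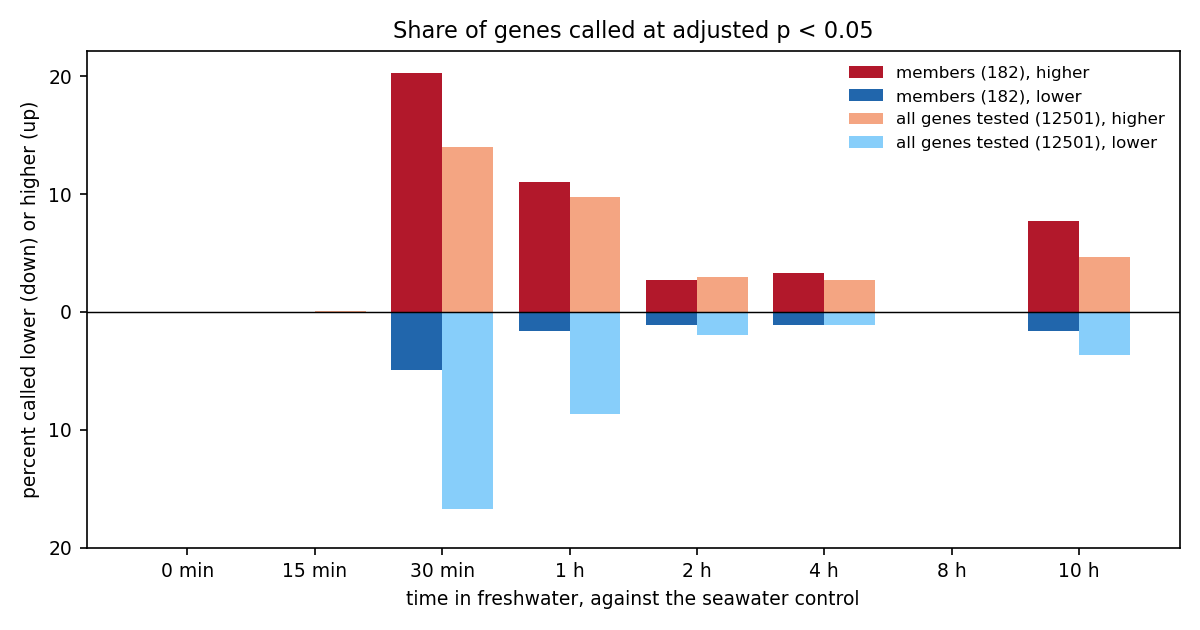
Percent of the 182 tested members (dark bars) and of all 12501 genes tested (light bars) called higher (up) or lower (down) than the seawater control at each time, at an adjusted p below 0.05. At 30 min 20.3% of the members were higher and 4.95% lower, against 14.0% and 16.7% of all genes, and edgeR called no member at 0 min, 15 min or 8 h.

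The transcripts of the proteasome itself formed a pulse between 15 min and 2 h. Summed over the 37 subunits of the 20S core and regulatory particle, they made up 2337 CPM in the control and 2372 at 0 min. They stood at 2816 and 3181 at 15 min, 3122 and 3382 at 30 min, 3268 at 1 h, and 3130 and 3186 at 2 h. At 4 h they were 2110 and 2441, at 8 h 2285 and 2155, and at 10 h 2361, 2575 and 2023. All 7 columns from 15 min to 2 h thus lay above all 9 others. DESeq2 size factors also kept them apart (2787 to 3377 against 2039 to 2623), but with library size alone 1 column at 10 h (2783) passed 1 at 15 min (2693). The group mean at 30 min was 3252 ± 184 CPM (SD, n = 2), 1.39 times the control, and at 8 h it was 2220 ± 92.0 (SD, n = 2), 0.95 times the control. These sums are a description and carry no test.

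Gene by gene, 10 of the 37 subunits were higher than the control at 30 min and 0 were lower, 27% where 14.0% of all genes were higher and 16.7% lower. At 1 h 6 were higher and 0 lower, 16.2% where 9.79% and 8.61% of all genes were. At 2 h 1 was higher (2 with DESeq2, 0 with scaling by library size alone), and at 4 h and 8 h edgeR called 0. At each of 4 h and 8 h 1 subunit had an unadjusted p under 0.05 and DESeq2 called 0. The median log2 fold change of the subunits was 0.49 at 30 min, 0.45 at 1 h and 0.45 at 2 h, then 0.0044 at 4 h and -0.07 at 8 h (0.11 with scaling by library size alone). At 15 min 36 of the 37 had a fold change above 0, against 6425 of the 12501 genes tested, although none was called alone. The count at 30 min was 5 without the 30 min replicate 3, 6 with DESeq2, 21 with scaling by library size alone and 5 with 0 min in place of the control. At 1 h it was 2 with 0 min in place of the control.

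The return was better measured than the rise, since both times had 2 columns and the single control column was not involved. From 30 min to 8 h, 19 of the 37 subunits fell and 0 rose, when 19.4% of all genes fell and 16.2% rose. They were 9 of the 19 core subunits and 10 of the 18 regulatory subunits, and the median over all 37 was -0.49 against -0.05 for all genes. Without the 8 h replicate 3 the count was 11. Over the whole membership 47 fell and 8 rose between these times, or 33 and 13 with DESeq2. That count of 55 was 34 without the 30 min replicate 2 and 32 without the 8 h replicate 3. In these fits the share of all genes called fell too. Much of the subunits' fall lay between 2 h and 4 h, a comparison added after the values had been seen. There the subunits' median was -0.48 and that of all genes -0.01. At the level of single genes 4 subunits were called lower, 3 of them regulatory, with 2.00% of all genes lower and 2.17% called in either direction. These calls rest on few columns: they were lost without the 2 h replicate 1, the 2 h replicate 3 or the 4 h replicate 2. Fewer were left without the 30 min replicate 2 or the 10 h replicate 1. In each of these fits the share of all genes called fell as well.

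**Figure D2:**
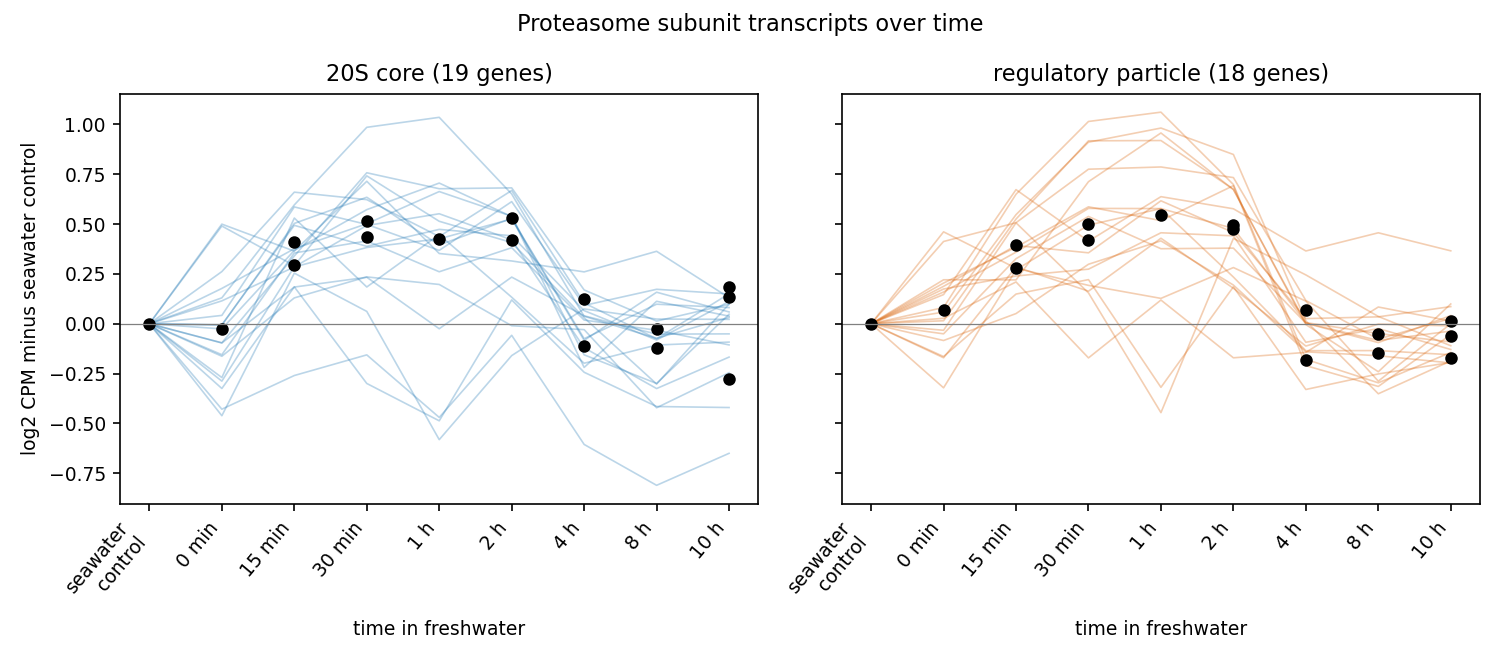
Log2 CPM minus the seawater control for the 19 core subunits (left) and 18 regulatory subunits (right) in each group, groups evenly spaced. Thin lines join the group means of single genes, and black points are the median over the genes in each independent column. The medians lie above 0 in all columns from 15 min to 2 h and between -0.27 and 0.18 from 4 h on.

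The beta 6 subunit CCRYP_018586, one of the beta subunits that form the inner rings of the barrel, had the clearest pulse in the core. It stood at 56.8 CPM in the control, 62.2 at 0 min, 80.7 and 91.7 at 15 min, 98.7 and 129 at 30 min, 117 at 1 h, and 89.2 and 89.6 at 2 h. It was then at 52.4 and 64.8 at 4 h, 55.7 and 52.2 at 8 h, and 63.0, 64.5 and 48.1 at 10 h. The columns from 15 min to 2 h did not overlap with any other. It was higher than the control by 1.00 (SE 0.24, adjusted p = 0.0035) at 30 min and by 1.04 (SE 0.27, adjusted p = 0.01) at 1 h, and fell by 1.07 (SE 0.19, adjusted p = 0.00012) from 30 min to 8 h.

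The beta 5 subunit CCRYP_006332, known elsewhere for chymotrypsin-like cutting, was at 56.5 CPM in the control, 65.9 to 83.0 in the columns from 15 min to 2 h and 38.4 to 58.6 in all later columns. It fell by 0.80 (SE 0.19, adjusted p = 0.0019) from 30 min to 8 h, and the call was lost without the 8 h replicate 3 (adjusted p = 0.0651). Pairs of genes under one subunit name did not all look alike. Of both genes named beta 4, CCRYP_004161 rose from 66.1 CPM in the control to 101 and 125 at 30 min (0.76, SE 0.27, adjusted p = 0.037), while CCRYP_007936 was at 12.1 in the control and 9.20 and 10.3 at 30 min. Of both genes named alpha 2, CCRYP_020464 was at 118 CPM in the control and 171 and 162 at 30 min, and CCRYP_018893 at 20.5 and at 18.6 and 24.7. The alpha 1 subunit CCRYP_017324, the most counted of the core, was at 142 CPM in the control, 203 and 238 at 30 min, and 154 and 150 at 8 h, and was not called in any comparison. In each of the pairs above the gene with more counts was higher at 30 min and the one with fewer counts was near or below its control, and the difference between the genes of a pair was not tested.

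The alpha 5 subunit CCRYP_000650, part of the outer ring, was the 1 subunit called lower than the control at 10 h. It stood at 117 CPM in the control, 86.5 at 0 min, 98.6 and 96.0 at 15 min, 98.5 and 111 at 30 min, 84.0 at 1 h and 112 in both columns at 2 h. It was at 73.7 and 79.3 at 4 h, 58.0 and 75.7 at 8 h, and 72.1, 78.7 and 71.6 at 10 h. No freshwater column exceeded the control. At 10 h it was lower by 0.65 (SE 0.19, adjusted p = 0.032), a call lost without the 30 min replicate 2, the 10 h replicate 1 or the 10 h replicate 2 (adjusted p = 0.0562, 0.0972 and 0.0506). From 30 min to 8 h it also fell by 0.65 (SE 0.17, adjusted p = 0.0046), which was lost without the 8 h replicate 2 (adjusted p = 0.105).

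In the regulatory particle the largest pulses were in non-ATPase subunits of its lid. CCRYP_007211, named as the lid subunit Rpn12, was at 54.7 CPM in the control, 56.9 at 0 min, 75.3 and 85.2 at 15 min, 113 and 94.3 at 30 min, 108 at 1 h, and 102 and 95.7 at 2 h. It dropped to 48.7 and 62.5 at 4 h, 40.5 and 45.0 at 8 h, and 42.2, 50.2 and 52.1 at 10 h. Again the columns from 15 min to 2 h stood apart from all others. It was higher than the control by 0.93 (SE 0.23, adjusted p = 0.0042) at 30 min and by 0.99 (SE 0.26, adjusted p = 0.011) at 1 h, and fell by 1.28 (SE 0.18, adjusted p = 9.7e-06) from 30 min to 8 h. It was the 1 subunit called at 2 h (0.86, SE 0.23, adjusted p = 0.035), a call lost without the 2 h replicate 1 (adjusted p = 0.143).

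The lid subunit Rpn5, CCRYP_004741, rose from 111 CPM in the control to 180 and 185 at 30 min and 216 at 1 h, and was at 110 and 100 at 8 h. It was higher than the control by 0.71 (SE 0.21, adjusted p = 0.013) and 0.96 (SE 0.24, adjusted p = 0.0085) at these times and fell by 0.80 (SE 0.17, adjusted p = 0.00079) to 8 h. CCRYP_008739, named as Rpn8, which in other species is the partner of the deubiquitinating subunit Rpn11, was at 22.9 CPM in the control, 44.8 and 49.1 at 30 min, 48.4 at 1 h, and 16.7 and 20.7 at 8 h. It was higher by 1.03 (SE 0.30, adjusted p = 0.011) at 30 min and fell by 1.33 (SE 0.24, adjusted p = 0.00014) to 8 h. These calls of both genes held without each replicate in turn. Rpn11 itself, CCRYP_019843, which removes ubiquitin as a protein enters the core, was at 36.5 CPM in the control, 52.4 and 58.0 at 30 min, 59.5 and 59.2 at 2 h, 31.8 and 31.3 at 4 h, and 26.4 and 32.4 at 8 h. It fell by 0.91 (SE 0.19, adjusted p = 0.00073) from 30 min to 8 h, and was not called against the control at any time.

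Across the 37 subunits the profile over the 9 group means was shared. The correlation of a subunit with the mean profile of the others, a description over 9 points that share their libraries, had a median of 0.89 and was above 0.5 for 31 of them. The 3 least alike were the second alpha 2 gene CCRYP_018893 (-0.14), the ATPase Rpt2 CCRYP_018641 (-0.10) and the lid subunit Rpn3 CCRYP_005434 (0.21). Rpt2 was at 114 CPM in the control, 99.7 and 102 at 30 min, 124 at 1 h, and 125 and 117 at 8 h, with no pulse. Rpn3 was at 14.5 CPM in the control and 10.5 to 22.4 in every other column. The 20 subunits called among the 9 groups were 54.1% of the 37, beside 40.9% of all genes. Of them 12 had their highest group mean at 1 h, a single column, and 5 at 30 min, and 13 had their lowest at 8 h. Of the 50 other members called, 12 were highest at 10 h and 11 at 1 h, and 20 were lowest in the single control column. Such extremes were not counted over all genes.

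A stricter reading asks that all 7 columns from 15 min to 2 h lie above all 9 others, a window chosen after the values were seen and given with no test. It held for 12 of the 37 subunits, 8 of them regulatory, and for 1.66% of all genes tested. It held for only 4 of the other 145 tested members: the E2 CCRYP_014124, the ligase CCRYP_019040, the desumoylating isopeptidase CCRYP_002014 and the USP6-named deubiquitinase CCRYP_005326. The reverse, all 7 columns below all others, held for 0 members and 0.240% of all genes. Among the proteasome's other partners, the activator PA200 (CCRYP_011313), an alternative cap of the core, ran between 164 and 225 CPM, and the scaffold protein ECM29 (CCRYP_011471), which binds the 26S proteasome in yeast, between 148 and 225. Neither was called in any comparison. The proteasome phosphatase UBLCP1 (CCRYP_019193) rose by 0.59 (SE 0.23) at 30 min with an adjusted p just under 0.05, and the call was lost in 8 of the 13 fits that left out 1 replicate (adjusted p from 0.0536 to 0.15).

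At the head of the cascade the E1 gene with the most counts was below the control. It was so already in the single 0 min column, and still at 4 h and 10 h, after the subunits' pulse. CCRYP_002673, named for the ubiquitin-activating enzyme UBA1, stood at 111 CPM in the control, 72.0 at 0 min, 76.8 and 78.2 at 15 min, 49.8 and 62.1 at 30 min, 59.3 at 1 h, 52.0 and 48.05 at 2 h, and 41.6 and 58.8 at 4 h. It was at 86.2 and 103 at 8 h and back at 51.6, 60.3 and 66.5 at 10 h. Every freshwater column was below the control, and the 8 h columns lay above all other freshwater columns. It was lower than the control by 1.15 (SE 0.23, adjusted p = 0.0077) at 2 h and by 0.91 (SE 0.27, adjusted p = 0.023) at 1 h, calls that held without each replicate in turn. The single control and 1 h columns stayed in all of these fits.

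It was also called lower at 30 min (-0.999, SE 0.22, adjusted p = 0.0023), 4 h (-1.15, SE 0.23, adjusted p = 0.0052) and 10 h (-0.90, SE 0.21, adjusted p = 0.012). These 3 calls of CCRYP_002673 were lost without the 30 min replicate 2 (adjusted p = 0.057), the 4 h replicate 2 (0.0776) and the 10 h replicate 1 (0.0536). The rise from 4 h to 8 h was 0.92 (SE 0.19, adjusted p = 0.0059), with 0.528% of all genes higher and 2.81% lower between these times, and the fall from 8 h to 10 h was 0.66 (SE 0.17, adjusted p = 0.026). Both rested on few columns: the rise was lost without the 4 h replicate 2 (adjusted p = 0.177) or the 8 h replicate 3 (0.108), and the fall in 4 of the 13 fits that left out 1 replicate (0.0574 to 0.36). Both other genes with this E1 name were at low counts, CCRYP_003649 from 3.39 to 16.9 CPM and CCRYP_018625 from 5.23 to 14.6. CCRYP_003649 was higher at 1 h (1.80, SE 0.54, adjusted p = 0.024), where a single column was measured.

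Of the 15 E2 genes, which carry the activated ubiquitin, 5 were higher at 30 min and 0 lower, against 14.0% and 16.7% of all genes. At 1 h 1 was higher and 0 lower, a share of 6.67% against 9.79% of all genes higher. From 30 min to 8 h 3 fell and 0 rose, against 19.4% and 16.2% of all genes. Their median at 30 min was 0.83. CCRYP_014124 was at 142 CPM in the control, 168 at 0 min, 178 and 241 at 15 min, 257 and 288 at 30 min, 220 at 1 h, and 209 and 249 at 2 h. It was at 177 and 166 at 4 h, 154 and 133 at 8 h, and 167, 169 and 117 at 10 h. It rose by 0.94 (SE 0.25, adjusted p = 0.0061) at 30 min and fell by 0.92 (SE 0.19, adjusted p = 0.00075) to 8 h, and its columns from 15 min to 2 h did not overlap with the rest. CCRYP_006419, named E2 B, was at 24.8 CPM in the control, 42.5 already at 0 min, 49.8 and 49.4 at 30 min, 57.6 at 1 h, and 29.0 and 29.1 at 8 h. It was higher by 1.00 (SE 0.26, adjusted p = 0.0059) at 30 min and by 1.22 (SE 0.29, adjusted p = 0.0071) at 1 h, and fell by 0.77 (SE 0.20, adjusted p = 0.0042) to 8 h. The calls of both genes held without each replicate in turn. The E2 gene CCRYP_009108, named J2 after an enzyme of the endoplasmic reticulum, had its highest group mean at 0 min and its lowest in the control, both single columns. It was at 32.6 CPM in the control, 76.6 at 0 min, 87.9 and 49.9 at 4 h, 40.3 and 34.8 at 8 h, and 74.1, 52.5 and 46.7 at 10 h. It differed among the 9 groups (adjusted p = 0.012) but not in any single comparison.

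Of the 63 ligases tested, 9 were higher and 6 lower at 30 min, 14.3% and 9.52% against 14.0% and 16.7% of all genes, with a median of 0.20. From 30 min to 8 h 10 fell and 7 rose, 15.9% and 11.1% against 19.4% and 16.2% of all genes, with a median of 0.01. The RING-finger gene CCRYP_007324, named RCHY1 after a ligase that binds a tumour suppressor in mammals, was at 18.4 CPM in the control, 35.4 at 0 min, 22.7 and 27.8 at 15 min, 35.8 and 48.8 at 30 min, 30.5 at 1 h, and 15.1 and 13.5 at 8 h. It fell by 1.54 (SE 0.27, adjusted p = 0.00011) from 30 min to 8 h. The HECT-type ligase CCRYP_013019, named Nedd-4, was at 16.0 CPM in the control, 16.3 and 20.0 at 15 min, and 33.2 and 35.5 at 30 min. It was higher than the control by 1.10 (SE 0.29, adjusted p = 0.0072) at 30 min, which held without each replicate. Its rise from 15 min to 30 min and its fall to 8 h were also called. The first was lost without the 15 min replicate 1 (0.77) and the second without the 8 h replicate 3 (-0.76).

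The RING-type gene CCRYP_010404, named RHA2B, rose from 8.15 CPM in the control to 24.7 and 28.3 at 30 min (1.69, SE 0.42, adjusted p = 0.0045) and was at 9.49 and 10.5 at 8 h (a fall of 1.40, SE 0.31, adjusted p = 0.0013). The gene CCRYP_019040, named for the ligase NOSIP, was at 18.4 CPM in the control, 35.8 and 41.6 at 30 min, 50.1 at 1 h, 49.7 and 31.8 at 2 h, and 20.5 and 15.3 at 8 h. It was higher by 1.06 (SE 0.31, adjusted p = 0.012) at 30 min and by 1.44 (SE 0.35, adjusted p = 0.0069) at 1 h. In both genes the 30 min columns lay above the control and the 8 h columns.

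RNF13, CCRYP_020262, a ligase that sits in endosomal membranes in animals, moved opposite to the proteasome subunits. It was at 104 CPM in the control, 98.8 at 0 min, 88.9 and 73.2 at 15 min, 50.6 and 58.5 at 30 min, 55.2 at 1 h, and 55.1 and 59.2 at 2 h. It then climbed through 71.2 and 67.7 at 4 h to 96.2 and 88.6 at 8 h, and was at 90.5, 94.6 and 86.8 at 10 h. The columns from 30 min to 2 h were the 5 lowest. It was lower than the control by 0.94 (SE 0.20, adjusted p = 0.0018) at 30 min and by 0.91 (SE 0.24, adjusted p = 0.013) at 1 h, and rose by 0.77 (SE 0.17, adjusted p = 0.0011) from 30 min to 8 h. These calls held without each replicate in turn. The U-box gene CCRYP_016891 was at 268 CPM in the control, 107 and 173 at 30 min, 171 at 1 h, 347 and 298 at 4 h, and 379 and 322 at 8 h. It rose by 1.34 (SE 0.22, adjusted p = 8.8e-05) from 30 min to 8 h, while its lower level at 30 min (-0.95, SE 0.26, adjusted p = 0.0094) was lost without the 30 min replicate 2 (adjusted p = 0.178).

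The gene CCRYP_001983, named WAV3 after a plant ligase of root growth, swung both ways. It was at 114 CPM in the control, 94.2 at 0 min, 136 and 142 at 15 min, 64.4 and 59.4 at 30 min, 120 at 1 h, 187 and 175 at 2 h, and 223 and 239 at 4 h. It was at 121 and 124 at 8 h and 129, 144 and 144 at 10 h. The 30 min columns were the lowest of all 16 and the 4 h columns the highest. It fell by 1.16 (SE 0.16, adjusted p = 9.4e-05) from 15 min to 30 min, was higher than the control by 1.02 (SE 0.20, adjusted p = 0.005) at 4 h, and fell by 0.92 (SE 0.16, adjusted p = 0.00065) from 4 h to 8 h. Each of these calls held without each replicate in turn.

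**Figure D3:**
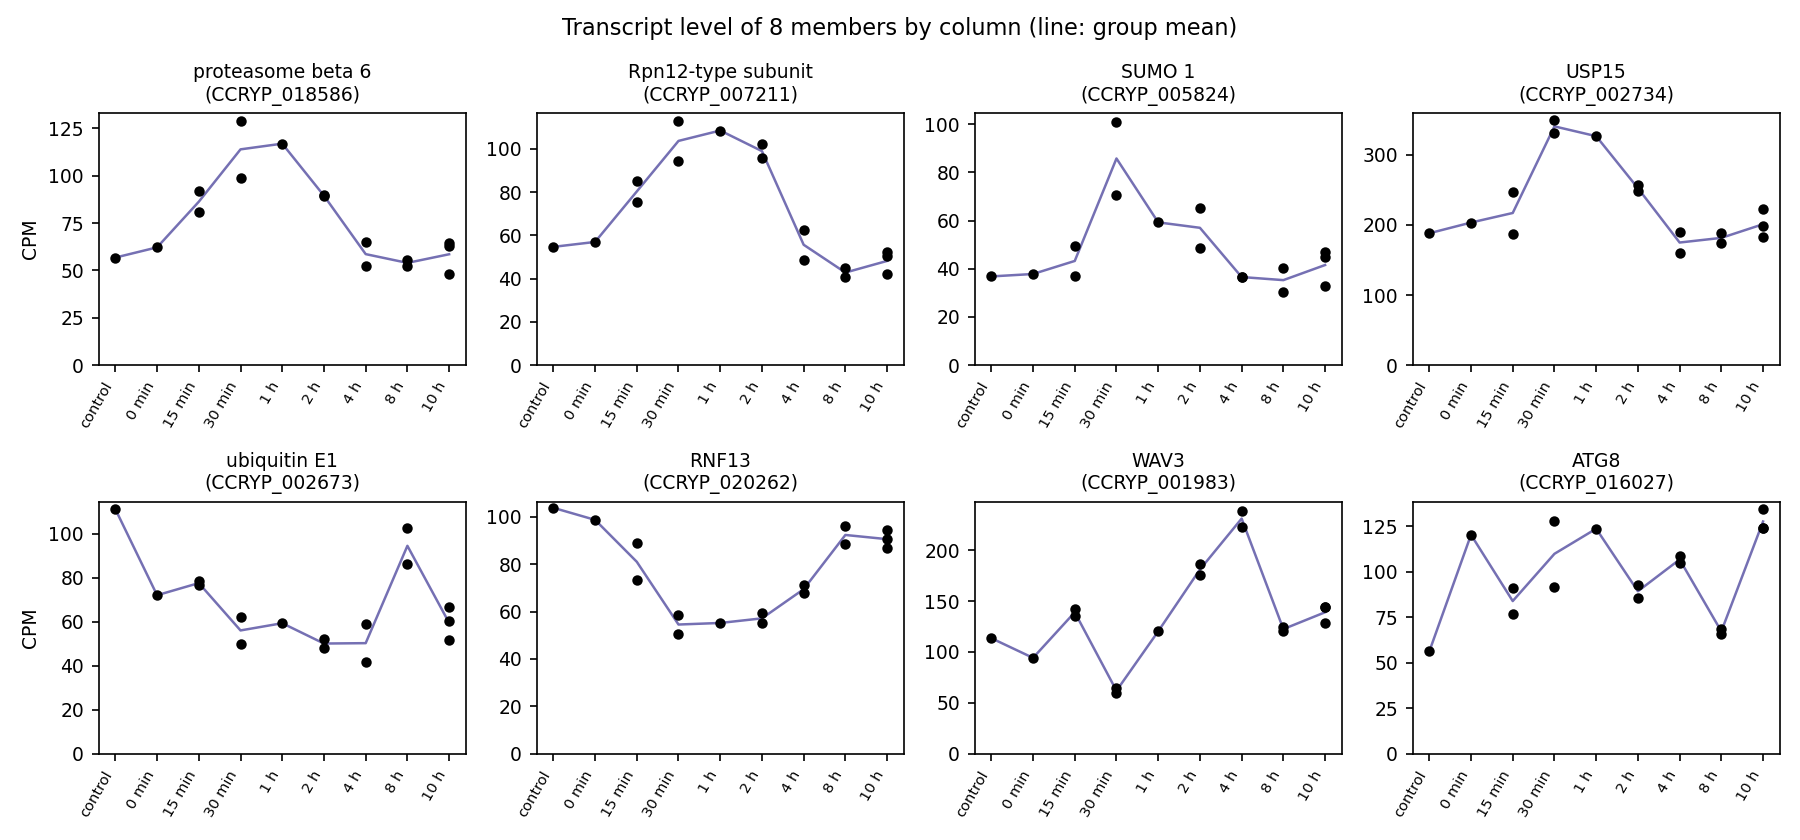
CPM of 8 members in each of the 16 independent columns (points), with a line through the group means, groups evenly spaced and each axis starting at 0. The beta 6 and Rpn12 subunits, SUMO 1 and USP15 peak at 30 min or 1 h, RNF13 and the ubiquitin E1 are low then, WAV3 is lowest at 30 min and highest at 4 h, and ATG8 is low in the control and at 8 h.

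Between 15 min and 30 min 8 members rose and 13 fell, with 10.7% of all genes higher and 13.5% lower. With scaling by library size alone the split was 40 and 3, so the calls give no direction of the group for this step. The members' median log2 fold change was 0.19 against 0.05 for all genes, and 0.43 against 0.30 with scaling by library size alone. The count of 21 fell sharply without the 15 min replicate 1 or the 30 min replicate 2, and so did the share of all genes called. The RING-H2 gene CCRYP_008685, named ATL18, was at 134 and 119 CPM at 15 min and 75.3 and 71.0 at 30 min, a fall of 0.79 (SE 0.17, adjusted p = 0.0021), lost without the 15 min replicate 1 (adjusted p = 0.0598). CCRYP_014402, named ATL72, was at 141 and 103 and then at 70.7 and 72.4, a fall of 0.77 (SE 0.18, adjusted p = 0.0043), lost without the 15 min replicate 1 (0.156) or the 30 min replicate 2 (0.0696). Both falls kept their sign and their call with scaling by library size alone.

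In a further set of ligases the control column was the lowest of all 16 and the 0 min column was already high, although edgeR called no gene at 0 min (56 of the 12501 genes were called with DESeq2 and 79 with scaling by library size alone). The HECT-type gene CCRYP_019461, named ptr1 after a yeast ligase, was at 44.1 CPM in the control and 83.7 at 0 min. It was at 59.3 and 60.5 at 15 min, 78.8 and 70.7 at 30 min, 80.6 at 1 h, 84.5 and 54.9 at 2 h, 101 and 66.2 at 4 h, 53.6 and 53.7 at 8 h, and 94.7, 89.9 and 92.8 at 10 h. Every freshwater column lay above the control. It was higher than the control by 1.07 (SE 0.25, adjusted p = 0.012) at 10 h, which held without each replicate. Its calls at 30 min, 1 h and 4 h were lost in 1, 3 and 7 of the 13 fits that left out 1 replicate. Since the 0 min column was already high, its fold change at 30 min was -0.16 with 0 min as the baseline. The SCF subunit gene CCRYP_002041 rose from 3.93 CPM in the control to 17.2 at 0 min and 13.7 and 14.7 at 30 min, higher by 1.84 (SE 0.46, adjusted p = 0.0051), and was at -0.29 against 0 min.

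The most counted ligase gene, UPL2 (CCRYP_008520), was at 595 CPM in the control and 476 to 757 in all freshwater columns, and was not called in any comparison. Among the least counted was CCRYP_008387, named BIG BROTHER-related, with 0 counts in 1 column at 2 h and at most 4.74 CPM. It was 1 of 10 ligases lower at 8 h than at 30 min (-2.68, SE 0.85, adjusted p = 0.017), which was lost without the 30 min replicate 2, the 8 h replicate 2 or the 8 h replicate 3 (adjusted p = 0.14, 0.133 and 0.0556).

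Among the 25 deubiquitinases 6 were higher at 30 min and 0 lower, where 14.0% of all genes were higher and 16.7% lower. A fold change above 0 was seen in 24 of the 25 and in 6718 of the 12501 genes tested. From 30 min to 8 h 9 fell and 0 rose, against 19.4% and 16.2% of all genes, with a median of -0.36. USP15, CCRYP_002734, was at 188 CPM in the control, 203 at 0 min, 188 and 246 at 15 min, 350 and 331 at 30 min, 327 at 1 h, 248 and 257 at 2 h, 160 and 189 at 4 h, 188 and 175 at 8 h, and 198, 223 and 182 at 10 h. The 30 min and 1 h columns were the 3 highest. It was higher by 0.86 (SE 0.22, adjusted p = 0.0059) at 30 min and by 0.80 (SE 0.25, adjusted p = 0.029) at 1 h, and fell by 0.91 (SE 0.18, adjusted p = 0.00035) from 30 min to 8 h, calls that held without each replicate. The MINDY-3-named gene CCRYP_018879, of a family that trims long ubiquitin chains in animals, was at 24.2 CPM in the control, 20.0 and 23.9 at 15 min, 39.0 and 36.6 at 30 min, 34.6 at 1 h and 21.0 and 17.4 at 8 h. It fell by 0.97 (SE 0.23, adjusted p = 0.0025) from 30 min to 8 h, which held without each replicate.

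A USP2-named gene, CCRYP_011069, was at 12.1 CPM in the control, 34.2 at 0 min, 20.0 and 22.0 at 15 min, 30.9 and 35.0 at 30 min, 30.2 at 1 h, 36.5 and 23.5 at 2 h, 37.6 and 23.1 at 4 h, 15.6 and 22.2 at 8 h, and 38.9, 28.5 and 33.3 at 10 h. All freshwater columns were above the control. It was called higher at 5 times, of which 30 min (1.44, SE 0.35, adjusted p = 0.0043), 1 h (1.32, SE 0.40, adjusted p = 0.026) and 10 h (1.48, SE 0.34, adjusted p = 0.012) held without each replicate. The calls at 2 h and 4 h were lost without the 2 h replicate 1 (adjusted p = 0.255) and the 4 h replicate 2 (0.357), and the latter also without either 15 min replicate (0.051 and 0.0511). Against 0 min all 5 fold changes of this gene were just below 0, from -0.18 to -0.02.

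The ALG13-named gene CCRYP_002026, a glycosyltransferase with a deubiquitinase domain in mammals, was at 10.9 CPM in the control and 38.0, 33.2 and 23.1 at 10 h (1.52, SE 0.40, adjusted p = 0.023), a call lost without the 10 h replicate 1 (adjusted p = 0.0714). The otubain gene CCRYP_009549 had its maximum at 4 h, at 24.1 and 22.3 CPM against 9.36 in the control (1.31, SE 0.36, adjusted p = 0.042), lost without the 30 min replicate 3, the 4 h replicate 2 or the 10 h replicate 1 (adjusted p = 0.0519, 0.195 and 0.0549). The USP4-named CCRYP_013053 was at 14.5 CPM in the control, 37.1 and 21.1 at 30 min, 36.6 at 1 h, 14.6 and 15.0 at 8 h, and 25.4, 25.7 and 32.7 at 10 h. Its level exceeded the control at 1 h (1.33, SE 0.39, adjusted p = 0.021), which held without each replicate, and at 30 min (1.04, SE 0.35, adjusted p = 0.025), lost without the 30 min replicate 2 (adjusted p = 0.248). The most counted deubiquitinase gene, named FAF (CCRYP_002177), ran from 277 to 370 CPM and was not called. At the low end the OTUD5-named CCRYP_004088 was at 0.91 CPM in the control and 6.78 and 3.61 at 30 min (2.54, SE 0.90, adjusted p = 0.034), lost without the 30 min replicate 2 (adjusted p = 0.185).

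In the SUMO pathway, as taken by words in the name, 3 of the 12 genes were higher at 30 min and 0 lower, beside 14.0% and 16.7% of all genes. SUMO 1 itself, CCRYP_005824, was at 36.8 CPM in the control, 37.8 at 0 min, 37.2 and 49.3 at 15 min, 101 and 70.5 at 30 min, 59.3 at 1 h, 48.7 and 65.4 at 2 h, 36.7 and 36.5 at 4 h, 40.3 and 30.3 at 8 h, and 44.8, 46.9 and 33.0 at 10 h. The 30 min columns were the 2 highest. It was higher than the control by 1.23 (SE 0.29, adjusted p = 0.003) at 30 min and fell by 1.29 (SE 0.22, adjusted p = 0.0001) to 8 h, and both calls held without each replicate in turn. The related gene CCRYP_005829, with the name of the yeast SUMO, was counted among the other ubiquitin-like proteins and not among the 12. It was at 31.1 CPM in the control, 71.1 and 51.9 at 30 min and 31.6 and 25.2 at 8 h. It rose by 1.00 (SE 0.32, adjusted p = 0.021), lost without the 30 min replicate 2 (adjusted p = 0.113), and fell by 1.12 (SE 0.25, adjusted p = 0.0015). A second gene of that name, CCRYP_006932, was at 27.2 CPM in the control and 30.4 and 32.2 at 30 min. Reads shared by such similar genes were not counted, so their separate levels are uncertain.

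On the removal side, the desumoylating isopeptidase CCRYP_002014, which takes SUMO off its targets, was at 32.0 CPM in the control, 45.2 at 0 min, 50.1 to 62.5 in all columns from 15 min to 2 h, and 29.4 to 41.3 in all later ones. It was higher by 0.77 (SE 0.23, adjusted p = 0.014) at 30 min and fell by 0.76 (SE 0.18, adjusted p = 0.0022) from 30 min to 8 h, calls that held without each replicate. The SUMO protease gene CCRYP_003747 was at 16.6 CPM in the control and 35.4 and 35.5 at 30 min (1.09, SE 0.35, adjusted p = 0.019), and was not put through the fits that left out a replicate. The SUMO E1 subunit CCRYP_017669 differed among the 9 groups (adjusted p = 0.047), with 29.9 CPM in the control, 48.8 at 1 h and 22.2 at 0 min.

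Of the 13 other ubiquitin-like proteins and their enzymes 3 were higher at 30 min and 0 lower, beside 14.0% and 16.7% of all genes. The 3 include CCRYP_005829, which has the name of the yeast SUMO. ATG8, CCRYP_016027, which is joined to lipid on growing autophagosomes, was at 56.2 CPM in the control and 120 at 0 min. It was at 76.8 and 91.0 at 15 min, 128 and 91.8 at 30 min, 124 at 1 h, 92.9 and 85.6 at 2 h, 109 and 105 at 4 h, 65.7 and 68.8 at 8 h, and 135, 124 and 124 at 10 h. All freshwater columns exceeded the control, and the 8 h columns were the lowest of them. It was higher by 0.98 (SE 0.23, adjusted p = 0.0031) at 30 min, 1.14 (SE 0.26, adjusted p = 0.0046) at 1 h and 1.18 (SE 0.22, adjusted p = 0.0034) at 10 h, and rose by 0.92 (SE 0.16, adjusted p = 0.002) from 8 h to 10 h, all held without each replicate. The call at 4 h (0.93, SE 0.23, adjusted p = 0.023) was lost without the 4 h replicate 2 (adjusted p = 0.0909). Against 0 min its fold change was -0.12 at 30 min and -0.17 at 4 h.

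From 8 h to 10 h 7 members rose and 1 fell, with 2.77% of all genes higher and 0.888% lower, 3.66% in all. The ATG8, ptr1 and USP2 genes were among the 7. That count of 8 was 1 without the 8 h replicate 2, the 8 h replicate 3 or the 10 h replicate 1, 5 without the 10 h replicate 2 and 13 without the 4 h replicate 2. In each of these fits the share of all genes called moved the same way as the members' count. The NUB1-named gene CCRYP_014964, which in mammals brings NEDD8 to the proteasome, was at 26.6 CPM in the control, 60.6 at 0 min, 64.9 and 42.0 at 8 h, and 97.3, 80.9 and 78.2 at 10 h. At 10 h it was higher than the control by 1.68 (SE 0.35, adjusted p = 0.0096), the highest log2 fold change among the 17 members called then. From 4 h to 8 h 1 member rose and 4 fell, with 3.34% of all genes called. In the fits below that left out a replicate, that share moved the same way as the members' count. This count was 1 without the 4 h replicate 2 or the 8 h replicate 3, 2 without the 8 h replicate 2 and 12 without the 4 h replicate 3, and with scaling by library size alone 1 rose and 1 fell.

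Among ubiquitin receptors and other names, no member of the 11 was higher at 30 min and 2 were lower, a share of 18.2% beside 16.7% of all genes. These 11 include the RING-H2 genes CCRYP_008685 and CCRYP_014402, which were not counted as ligases. CCRYP_014402 was 1 of the 2 lower genes. UFD1, CCRYP_004021, a partner of the Cdc48 ATPase that pulls ubiquitinated proteins from membranes and complexes, was at 108 CPM in the control, 71.1 at 0 min, 70.8 and 58.6 at 15 min, 53.6 and 62.1 at 30 min, and 63.0 at 1 h. It was at 54.4 and 78.0 at 2 h, 53.0 and 68.1 at 4 h, 65.7 and 70.3 at 8 h, and 56.8, 62.0 and 61.8 at 10 h. All 15 freshwater columns lay below the control, from 0 min to 10 h. It was lower by 0.91 (SE 0.22, adjusted p = 0.004) at 30 min and by 0.85 (SE 0.21, adjusted p = 0.016) at 10 h. Both calls hung on single columns, being lost without the 30 min replicate 2 (adjusted p = 0.0701) and the 10 h replicate 1 (0.0579). The calls at 1 h and 4 h were lost in 6 and 2 of the 13 such fits. The splicing factor gene CCRYP_013949, whose protein holds an inactive deubiquitinase fold in other species, was at 56.8 CPM in the control, 91.7 at 0 min, 79.4 and 87.7 at 30 min, and 51.1 and 49.8 at 8 h. It fell by 0.72 (SE 0.18, adjusted p = 0.0037) from 30 min to 8 h, which held without each replicate. The proteasome's ubiquitin receptor ADRM1, CCRYP_019039, was at 79.1 CPM in the control, 76.9 and 105 at 30 min, and 56.7 and 64.6 at 8 h, a fall of 0.58 (SE 0.19, adjusted p = 0.02), lost without the 30 min replicate 3 (adjusted p = 0.261), the 8 h replicate 2 (0.142) or the 8 h replicate 3 (0.0532).

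**Figure D4:**
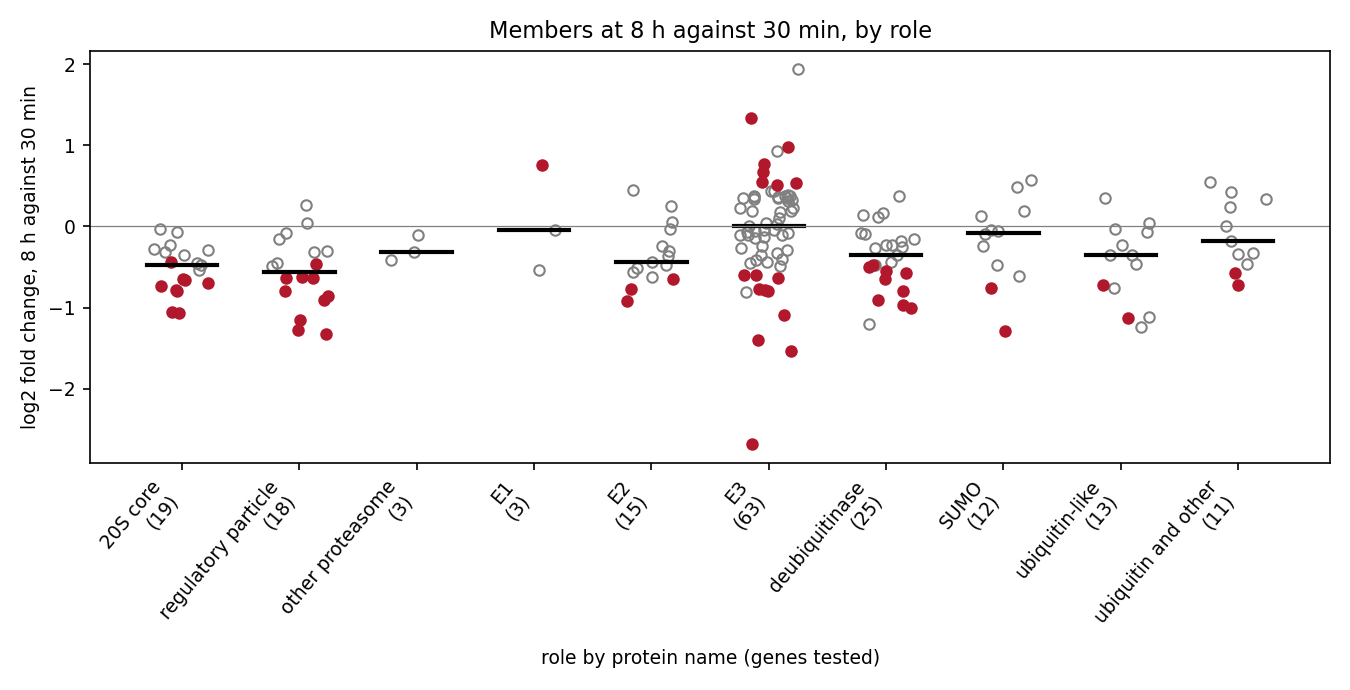
Log2 fold change at 8 h against 30 min for the 182 tested members, by role. Filled red points were called at an adjusted p below 0.05, open grey points were not, and black bars are medians. No called core or regulatory subunit rose, 7 ligases rose and 10 fell, and the E1 that rose is CCRYP_002673.

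A list of 84 further genes, found by words such as cullin, COP9, F-box, Cdc48, derlin, autophagy, Clp, FtsH and Lon in the name or its synonyms, was counted beside the members. The words also caught genes named for other work, such as galactosyltransferases and the kinase assembly factor MAT1. Another 8 were named as glycosyltransferases of Skp1, of which 3 were lower at 30 min and 0 higher. The counts of this list are thus not counts of the pathway alone. At 30 min 10 of them were higher and 16 lower, 11.9% and 19% against 14.0% and 16.7% of all genes, with a median of 0.04. From 30 min to 8 h 12 rose and 13 fell, 14.3% and 15.5% against 16.2% and 19.4% of all genes. The window from 15 min to 2 h stood above all other columns in 2 of the 84. Of the 4 derlins, membrane proteins that move misfolded proteins out of the endoplasmic reticulum, 3 were lower at 30 min. They were CCRYP_010452 (-0.78, adjusted p = 0.011), CCRYP_013891 (-0.70, adjusted p = 0.03) and CCRYP_003280 (-0.68, adjusted p = 0.035). Of the 6 genes named for Cdc48 or its animal counterpart, the transitional endoplasmic reticulum ATPase, 2 were lower at 30 min and 1 higher. CCRYP_013766, which carries the latter name, was not among them but was higher at 1 h (1.27, adjusted p = 0.003), 2 h (1.72, adjusted p = 0.00021) and 4 h (2.12, adjusted p = 1.5e-05). None of the 5 cullins, the scaffolds of many ligases, was called at 30 min, and of the 6 COP9 signalosome genes 1 was higher. Of the 14 Clp, FtsH and Lon proteases and chaperones, many of which work in plastids and mitochondria, 6 were lower at 30 min and 1, the ClpB1-named CCRYP_012713, was higher. These genes were tested in the same fit but not in the fits that left out a replicate.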

How the data were processed

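Groups were taken from the sample labels. The authors deposited raw gene counts per column, and HTSeq 0.11.3, STAR 2.7.3a and edgeR are named in the submitters' processing notes. Build, gene models and strandedness of counting were not given in the sources used here; genes that overlap, on either strand, are therefore uncertain. Columns that were copies or means of other columns of their group were left out: 16 of 27 stayed, with 2809130 to 6889349 gene counts each. Summary rows that name no gene entered neither library sizes nor tests.

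All 9 groups were fitted together in edgeR 4.0.16 (R 4.3.3) with TMM scaling, filterByExpr (minimum count 10, minimum total 15) and a robust quasi-likelihood test. This left 12501 genes, 7 residual degrees of freedom and a common biological coefficient of variation of 14.2%. CPM uses TMM library sizes, and log2 CPM in figures a prior count of 2. The fitting script was tested on simulated counts. Alternatives were DESeq2 1.42.0, DESeq2 size factors, library size alone, no filter, all 27 columns, means of copied columns, 0 min as baseline, a replicate block and leaving out each replicate of the groups with more than 1 column.

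The members and lists were chosen with earlier results of these data known. Genes described in full were, in each role, the 3 with the smallest p among the 9 groups and the highest CPM, the 4 highest and 4 lowest among those called at 30 min, 1 h and 10 h, the 3 largest changes between freshwater times, those called at 4 or more times and the 3 subunits least like the rest. The others named were chosen after their values were seen, as were the comparison of 4 h with 2 h and the counts over subunits alone. After the names were read, 4 role assignments were corrected (3 E1 genes and 1 ligase). No gene ID matched the reference gene table (0 of the members, 14109 genes), so no sequences, lengths or coordinates are given.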

Additional observations from a re-analysis of the deposited data

How the results depend on the processing

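Counts are of members unless subunits are named, comparisons with a single time are against the control, and the cause of each change was not tested unless said. Treating all 27 columns as independent, which by construction repeats columns, called 80, 76, 135, 118, 92, 63, 40 and 66 at the successive times from 0 min to 10 h, 172 among the 9 groups, 103 between 15 and 30 min, 61 between 2 h and 4 h, 115 between 30 min and 8 h, 42 between 4 h and 8 h and 47 between 8 h and 10 h. Of subunits it called 29 at 30 min, 32 at 1 h, 29 between 30 min and 8 h and 26 between 2 h and 4 h. Of all genes it called 43.6%, 33%, 71%, 64.7%, 53.1%, 47.6%, 25.1% and 49.7% at the same successive times, and 94.2% among the 9 groups. With 0 min as the baseline 10, 6, 2 and 1 were called at the times from 30 min to 4 h in turn and 0 at 10 h, and 5 and 2 subunits at 30 min and 1 h. All genes called were then 6.46%, 5.48%, 1.47% and 1.82% at the times from 30 min to 4 h, and 0.864% at 10 h. Fold changes of 5 genes that were high at 0 min changed sign: CCRYP_002041 (-0.29 at 30 min, -0.56 at 10 h), CCRYP_019461 (-0.16 at 30 min, -0.054 at 1 h), CCRYP_011069 (-0.062 at 30 min, -0.18 at both 1 h and 2 h, -0.16 at 4 h and -0.021 at 10 h), CCRYP_014964 (-0.14 at 30 min) and CCRYP_016027 (-0.12 at 30 min, -0.17 at 4 h). Without the filter on low counts 8 and 1 were called at 0 and 15 min, 13, 17 and 3 at 2, 4 and 8 h, 12 (9 of them subunits) between 2 h and 4 h, 8 between 4 h and 8 h and 18 between 8 h and 10 h. All genes called were then 1.6% and 1.77% at 0 and 15 min, 8.94%, 8.25% and 0.914% at 2, 4 and 8 h, and 3.99%, 5.23% and 6.44% between those times. Library size alone gave 3 at 0 min, 4 at 2 h, 43 between 15 and 30 min, 2 (both subunits) between 2 h and 4 h, 2 between 4 h and 8 h, and 21, 0 and 8 subunits at 30 min, at 2 h and between 15 and 30 min. All genes called were then 0.632% at 0 min, 4.78% at 2 h and 25.4% between 15 and 30 min. DESeq2 gave 1 at 0 min, 3 between 2 h and 4 h, and 6 and 2 subunits at 30 min and 2 h, and its size factors in edgeR gave 3 between 2 h and 4 h, 2 of them subunits. Means of copied columns gave 1 at 0 min and 5 at 4 h. Of 24 pairs of same-numbered columns of different groups 8 correlated over 0.1 in their deviations from the group means (range -0.16 to 0.36, median 0.06). All 8 lay among 2, 4, 8 and 10 h, where every same-numbered pair correlated above 0, and the pairs with 15 min and 30 min lay below 0.1. In groups of 2 columns the deviations mirror each other, so the 24 pairs are not separate measurements. The main fit used no block, and whether same-numbered columns from 2 h on share a source was not tested. With the replicate number as a block, which left 5 residual degrees of freedom, 1 was called at 15 min, 8 and 19 at 1 h and 2 h, and 3 subunits at 1 h. All genes called were then 1.06% at 15 min, 7.89% at 1 h and 11.1% at 2 h. Leaving out each replicate in turn gave 0 to 2 at 0 min, 0 to 0 at 15 min and at 8 h, 25 to 55 at 30 min and 17 to 24 at 1 h, then 1 to 12, 1 to 21 and 4 to 24 at 2, 4 and 10 h, 55 to 84 among the 9 groups, 1 to 27 between 15 and 30 min, 0 to 7 between 2 h and 4 h, 32 to 63 between 30 min and 8 h, 1 to 12 between 4 h and 8 h and 1 to 13 between 8 h and 10 h. Of subunits it gave 5 to 14 at 30 min, 5 to 7 at 1 h, 11 to 23 between 30 min and 8 h and 0 to 5 between 2 h and 4 h. Of 120 calls of named genes 57 held in all 13 such fits. With 1 column each, the control, 0 min and 1 h were never left out and limit what can be said of any change against them. The share of all genes called also moved between the fits that left out a replicate.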
